A study of Mus musculus with 2 samples.

Results

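Olfactory sensory neurons sense their chosen odorant receptor through stress signalling of the endoplasmic reticulum (ER), and they need helper proteins to bring that receptor to the cell surface. The places of 7 such genes among the chromosome boundaries of these neurons are described here. They were chosen by name, not by any measured value, though with earlier results of these data known. The 7, out of 21755 protein-coding genes, are Eif2ak3, Atf5, Ddit3 and Hspa5 of the ER stress feedback, and Rtp1, Rtp2 and Reep1 of receptor export. All 7 symbols were found in the gene annotation (GENCODE M21). The neurons, mature by their label, expressed the odorant receptor gene Olfr16 (MOR23) and came from the olfactory epithelium of MOR23-GFP mice, which were adult, of mixed sex and of a strain that the labels do not specify, and were sorted by fluorescence. There was 1 group and no treatment or control. In situ Hi-C, which joins DNA ends that lie together in the nucleus, was run with the enzyme DpnII on 28000 cells of biological replicate 1 and 24400 cells of biological replicate 2. Both replicates were merged into 1 contact matrix before 7435 boundaries of 5 kb were called on the mouse assembly GRCm38, so the boundary list used here holds no value per replicate, the depth behind a boundary is unknown, and no difference below carries a test over samples. RNA was not measured in these libraries, so neither the identity of the cells nor the expression of the 7 genes could be checked here.

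In an olfactory neuron, newly made receptor protein in the ER activates PERK, the kinase encoded by Eif2ak3, which phosphorylates the translation factor eIF2α. This lets the transcription factor ATF5 be translated from its mRNA, and the ensuing programme holds the chosen receptor gene on and keeps others silent until the adenylyl cyclase Adcy3 appears and the stress signal ends. BiP (Hspa5) is the chaperone that holds the stress sensors inactive, and CHOP (Ddit3) is a transcription factor of prolonged stress. RTP1 and RTP2 escort odorant receptors to the cell surface, and REEP1 is an ER-shaping protein that can promote their export. A boundary is a place that separates neighbouring stretches of chromosome with many internal contacts, and the stretch between consecutive boundaries is called an interval here.

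None of the 7 gene starts lay within 10 kb of a boundary, against 12.5% of the 21542 protein-coding starts that have a boundary on both sides. With 7 genes, a count of 0 allows a share of up to 42.9% (3 counts of the total, for counting error only), so a share as low as that of all genes could not be told from 0. Within 50 kb of a boundary lay 2 of the 7 starts, Rtp1 and Rtp2, against 44.3% of all protein-coding starts. This count is of gene starts: the nearest of the 5 annotated transcript starts of Eif2ak3 lay 33.2 kb from a boundary. More than 100 kb from any boundary lay 3 of the 7, Hspa5, Reep1 and Atf5, against 27.1%. The median distance was 64.5 kb for the 7 genes and 57.8 kb for all protein-coding genes, and 4 of the 7 lay above the median of all genes. The 7 genes thus spread over the middle and upper range of the genome's distances, and none lay at the near end.

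In order of distance, Rtp1 stood 40.9 kb from its nearest boundary, Rtp2 42.4 kb, Ddit3 54.2 kb, Eif2ak3 64.5 kb, Hspa5 122.0 kb, Reep1 217.4 kb and Atf5 303.3 kb. Rtp1 and Rtp2 differed by 1.53 kb, less than the 5 kb width of a boundary, so their order is not resolved. Every other neighbouring pair in this order differed by at least 10.3 kb. The positional error of a boundary call is unknown, so whether those orders are resolved was not tested. The order is that of gene starts. Among all protein-coding starts these distances ranged from percentile 37.3 for Rtp1 to percentile 95.7 for Atf5. The 4 feedback genes had a median distance of 93.2 kb (54.2 to 303.3 kb), and the 3 export genes one of 42.4 kb (40.9 to 217.4 kb), with ranges that overlap.

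**Figure D1:**
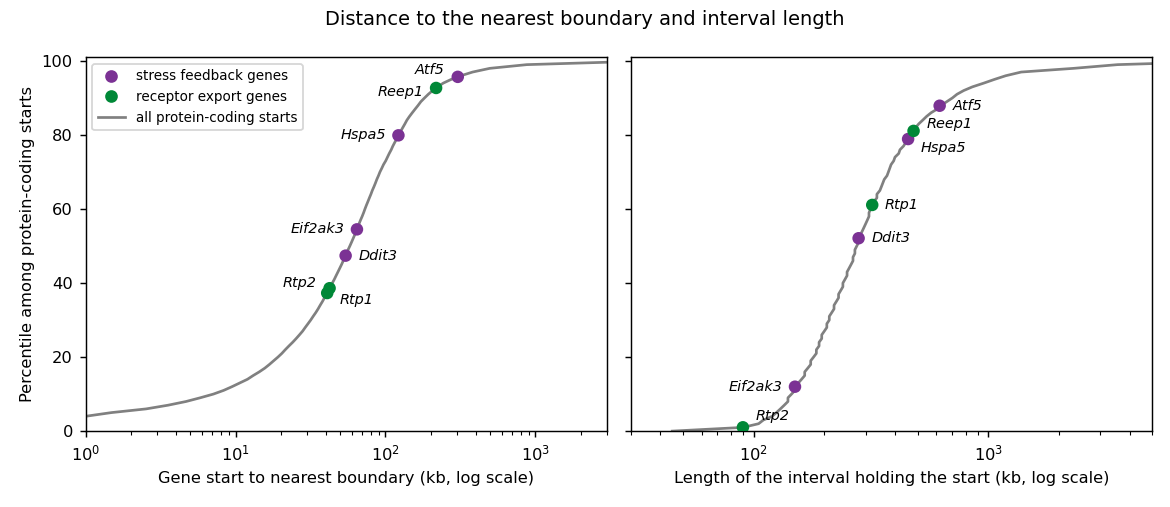
Left, the distance from each gene start to its nearest boundary (kb, log scale) against its percentile among all protein-coding starts (grey line); right, the same for the length of the interval that holds the start. Purple points are the 4 feedback genes and green points the 3 export genes: distances run from 40.9 kb (Rtp1) to 303.3 kb (Atf5) and intervals from 90.0 kb (Rtp2) to 620.0 kb (Atf5).

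The intervals that hold the 7 starts ran from 90.0 kb for Rtp2 to 620.0 kb for Atf5, with a median of 320.0 kb, against a median of 275.0 kb (quartiles 195.0 and 415.0 kb) over the 20836 protein-coding starts that lie in an interval. Within their intervals, 5 of the 7 starts stood nearer the centre than the median gene. Their median position was 43% of the interval's length from its nearer end, against 23.0% for all protein-coding starts. Atf5 was the most central at 48.9%, followed by Rtp2 at 47.1%, Reep1 at 45.3% and Eif2ak3 at 43%. Hspa5 at 26.8%, Ddit3 at 19.4% and Rtp1 at 12.8% lay off centre. Each of the 7 had 3 or 4 boundaries within 500 kb, and the median of all protein-coding starts was 4. No boundary lay in the body of any of the 7 genes, which is also so for 84.5% of all protein-coding genes.

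**Figure D2:**
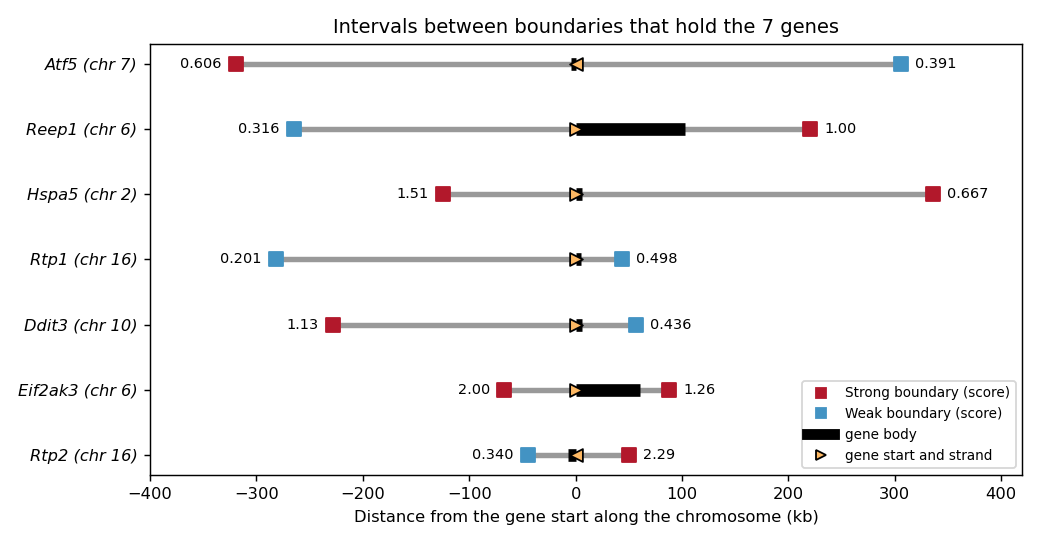
Each line is the interval that holds 1 of the 7 genes, drawn to scale in kb from the gene start along the chromosome, with the shortest interval at the bottom. Squares are the flanking boundaries with the authors' score (red Strong, blue Weak), black bars are gene bodies and triangles mark start and strand; Eif2ak3 and Hspa5 have a Strong boundary on both sides and Rtp1 a Weak one on both sides.

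Every boundary carries a strength score and a class from the authors' caller, with Strong from 0.5 upwards. The score's formula is not given in the sources used here, and it serves only to rank boundaries within this list, whose median is 0.520 (quartiles 0.301 and 0.969). The 7 genes have 14 different flanking boundaries, of which 8 (57.1%) were Strong, against 62.1% of the flanking places of all protein-coding starts, counting 2 places a gene. Their scores ran from 0.201 to 2.29 with a median of 0.637, against 0.651 over those places, and 7 of the 14 exceeded it. Strong boundaries stood on both sides of 2 of the 7 genes, Eif2ak3 and Hspa5, against 37.7% of all protein-coding starts in an interval. On 1 side only they stood beside 4 of the 7, against 48.7%, and on neither side of Rtp1, against 13.5%. Of the boundaries beside the feedback genes 6 of 8 were Strong (median score 0.898), and of those beside the export genes 2 of 6 (median score 0.419). Both groups span nearly the same scores, 0.391 to 2.00 for the feedback genes and 0.201 to 2.29 for the export genes, and with 4 and 3 genes the difference was not tested.

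CTCF is the DNA-binding protein that stops loop extrusion at many mammalian boundaries, depending on the direction of its site. Matches to the core of its consensus were sought on both strands within 10 kb of each boundary. The core has 12 positions, of which 4 accept either of 2 bases and the others only 1, and no mismatch was allowed. A match was found at 5 of the 14 flanking boundaries (35.7%), against 23.1% of all boundaries and 26.9% of the flanking places of all protein-coding starts. The 5 matches are shown because they are the stretches at these boundaries that can be read directly: the match in capitals with 40 bases on either side, 5′ to 3′ on the strand that carries it, from the GRCm38 reference. They stand in the order Eif2ak3 left (chr6:70768913-70769004, minus strand), Ddit3 right (chr10:127342442-127342533, minus strand), Rtp1 left (chr16:23135595-23135686, minus strand), Rtp2 left (chr16:23898399-23898490, minus strand) and Rtp2 right (chr16:23984323-23984414, plus strand), where left is towards lower coordinates.
Eif2ak3 left: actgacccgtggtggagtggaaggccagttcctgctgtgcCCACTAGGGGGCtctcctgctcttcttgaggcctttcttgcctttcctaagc
Ddit3 right: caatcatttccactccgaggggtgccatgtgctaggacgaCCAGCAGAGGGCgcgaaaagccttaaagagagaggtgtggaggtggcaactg
Rtp1 left: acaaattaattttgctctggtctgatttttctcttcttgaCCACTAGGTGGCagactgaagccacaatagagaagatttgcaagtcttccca
Rtp2 left: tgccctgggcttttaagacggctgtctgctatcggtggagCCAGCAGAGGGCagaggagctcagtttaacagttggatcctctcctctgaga
Rtp2 right: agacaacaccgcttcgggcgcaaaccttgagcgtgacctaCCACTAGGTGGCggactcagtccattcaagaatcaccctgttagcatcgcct
The 5 matches use 3 different words: Rtp1 left and Rtp2 right share CCACTAGGTGGC, and Ddit3 right and Rtp2 left share CCAGCAGAGGGC. The match at Rtp2 right lay inside the boundary itself, in an intron of Bcl6, and 6.27% of all boundaries hold a match inside. The others lay 2.52 kb (Ddit3 right) to 9.37 kb (Rtp1 left) outside it. Read along the strand of the match, 4 pointed away from the named gene and 1, at Ddit3 right, towards it. Rtp2 is the only one of the 7 with a match on both sides, and there both point away from the gene. Directions were not counted at other boundaries, so no share over all genes stands beside these counts and nothing is read from them. A match is a run of letters and not a bound site, since CTCF binding was not measured here. No match in a window says only that no word of this pattern is there.

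The flanking boundaries mostly overlapped genes. Of the 14, 11 (78.6%) overlapped an exon of a protein-coding gene, against 45.1% of the flanking places of all protein-coding starts. A protein-coding start lay within 10 kb of 9 of the 14 (64.3%), against 46.6% of those places and 27.8% of all boundaries, and 6 of the 14 (42.9%) held such a start inside, against 13.7% of those places. Emc10, March9, Cntrl, Adipoq and Rmnd5a are among the genes that start there. The 14 boundaries had a GC content of 41.1% to 53.8% with a median of 46.5%, and 12 of them exceeded the 44.2% that is the median over those places. GC content and gene density go together in the genome, and their part in these counts was not tested.

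Eif2ak3, the PERK gene at the head of the feedback (ENSMUSG00000031668.14, chr6:70844515-70905245, plus strand), lay in an interval of 150.0 kb, at percentile 12 of lengths counted per coding start. Its start was 64.5 kb from the left boundary (chr6:70775001-70780000) and 85.5 kb from the right one (chr6:70930001-70935000). Both were Strong, with scores of 2.00 and 1.26, at percentiles 96.2 and 84.6 of the list. This is the highest lower-side score among the 7 genes, so PERK had the strongest pair of flanking boundaries by that measure. The left boundary overlapped an exon of Rpia, which encodes an enzyme of the pentose phosphate pathway, and the right one lay between genes. The interval held 3 protein-coding starts, those of Rpia, Eif2ak3 and Tex37, with wide gaps between them: Rpia started 52.3 kb to the left of Eif2ak3 and Tex37, a gene named for its expression in testis, 74.4 kb to the right. Eif2ak3 is 60.7 kb long, and the end of its body came to 24.8 kb of the right boundary.

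Atf5, whose product is translated after PERK activation in the feedback described above (ENSMUSG00000038539.15, chr7:44812256-44816658, minus strand), was the opposite case. Its start lay 303.3 kb from the right boundary (chr7:45120001-45125000) and 316.7 kb from the left one (chr7:44495001-44500000), nearly at the centre of an interval of 620.0 kb. The distance is at percentile 95.7 and the relative position at percentile 98.1 of all protein-coding starts. The interval held 32 protein-coding starts (percentile 96.1) and 46 gene starts of any kind, a density of 51.6 coding starts per Mb. Its nearest neighbour, Il4i1, which encodes an amino acid oxidase, starts 0.271 kb from Atf5 on the opposite strand. On the other side Akt1s1, a target of the kinase AKT, starts 32.3 kb away. The first coding start from the left was that of Mybpc2, 24.7 kb from the boundary, and the last was that of Fcgrt, 16.1 kb from it. The left boundary was Strong with a score of 0.606 and held the start of Emc10, which encodes a subunit of a complex that inserts membrane proteins into the ER. The right one was Weak with a score of 0.391. Both scores lie near the middle of the list, at percentiles 55.9 and 37.1.

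Ddit3, which encodes CHOP (ENSMUSG00000025408.15, chr10:127290774-127296288, plus strand), lay in an interval of 280.0 kb, close to the median. Its start was 54.2 kb from the right boundary (chr10:127345001-127350000) and 225.8 kb from the left one (chr10:127060001-127065000). The left one was Strong with a score of 1.13 and overlapped exons of March9 and of the cell cycle kinase gene Cdk4. The right one was Weak with a score of 0.436 and overlapped an exon of Inhbe, an inhibin subunit gene. The interval was the densest of the 7, with 53.6 protein-coding genes per Mb and 15 in all. Counting both gene models that the annotation names Ddit3 gives 16 coding starts and 57.1 per Mb (percentile 92.3, over counts made the same way). Those nearest to Ddit3 were Mbd6, 1.76 kb away on the opposite strand, and Mars, the cytosolic methionyl-tRNA synthetase gene, 21.0 kb away. At its ends stood Tspan31, 5.26 kb from the left boundary, and Gli1, a transcription factor gene of hedgehog signalling, 3.03 kb from the right one. One other gene of the pathway lists shared the interval: Os9, whose product marks misfolded proteins for removal from the ER, starts 169.6 kb from Ddit3 with 0 boundaries between. The second model of Ddit3 starts 55 bp away in the same interval, and the distances above are those of the longer model.

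Hspa5, the BiP gene (ENSMUSG00000026864.13, chr2:34771970-34777547, plus strand), lay 122.0 kb from the left boundary (chr2:34645001-34650000) and 333.0 kb from the right one (chr2:35105001-35110000), in an interval of 455.0 kb. Both were Strong, at scores of 1.51 and 0.667. The left one overlapped an exon of the processed pseudogene Gm13414, and its nearest coding start, that of Gapvd1, was 105.2 kb away. The right one held the start of Cntrl, a centriole gene. The interval held 11 coding starts. Gapvd1, an endosomal trafficking gene, starts 16.7 kb to the left of Hspa5 and Rabepk, whose product works with a Rab protein of endosome transport, 27.9 kb to its right. The last start, AI182371, was 3.46 kb from the right boundary.

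The export genes Rtp1 and Rtp2 lie on chromosome 16 with Rtp4, another gene of the family, between them. Each of the 3 fell into an interval of its own, and the 3 intervals follow one another. Rtp1 (ENSMUSG00000033383.6, chr16:23429133-23433960, plus strand) lay 279.1 kb from its left boundary (chr16:23145001-23150000) and 40.9 kb from its right one (chr16:23470001-23475000), in an interval of 320.0 kb. Both were Weak. The left one, at the start of the adiponectin gene Adipoq, scored 0.201, at percentile 0.390 of the list and thus just above its lowest score of 0.2. The right one overlapped an exon of the complement protease gene Masp1 and scored 0.498, just below the Strong class. The interval was the emptiest of the 7 per Mb, with 2 coding starts and 6.25 per Mb (percentile 13.2); the other start, that of the sialyltransferase gene St6gal1, was 204.4 kb away.

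Rtp2 (ENSMUSG00000047531.9, chr16:23925548-23932394, minus strand) lay in the shortest interval of the 7, 90.0 kb, at percentile 1.03 of lengths counted per coding start. It stood 42.4 kb from the left boundary (chr16:23885001-23890000) and 47.6 kb from the right one (chr16:23980001-23985000). The left one was Weak with a score of 0.340 and overlapped an exon of the somatostatin gene Sst, whose start was 0.958 kb from it. The right one, in an intron of the transcriptional repressor gene Bcl6, scored 2.29, at percentile 98.2, and was the strongest of the 14. It is the one that holds the CTCF word CCACTAGGTGGC shown above. Sst and Rtp2 were the only coding starts of the interval, 41.4 kb apart.

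Between Rtp1 and Rtp2, whose starts are 503.3 kb apart, stood 2 boundaries, both Weak. The one of score 0.498 separated Rtp1 from Rtp4, whose annotated start is 91.2 kb from that of Rtp1, and the one of score 0.340 separated Rtp4 from Rtp2, 412.1 kb apart. All 5 annotated transcripts of Rtp4 start in the same interval, between 91.2 and 180.8 kb from the Rtp1 start. With Weak boundaries left out, all 3 genes fell into a single interval of 900.0 kb, from a Strong boundary of score 0.887 (chr16:23075001-23080000) to the one in Bcl6. The separation of the 3 genes thus depends on counting Weak boundaries.

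**Figure D3:**
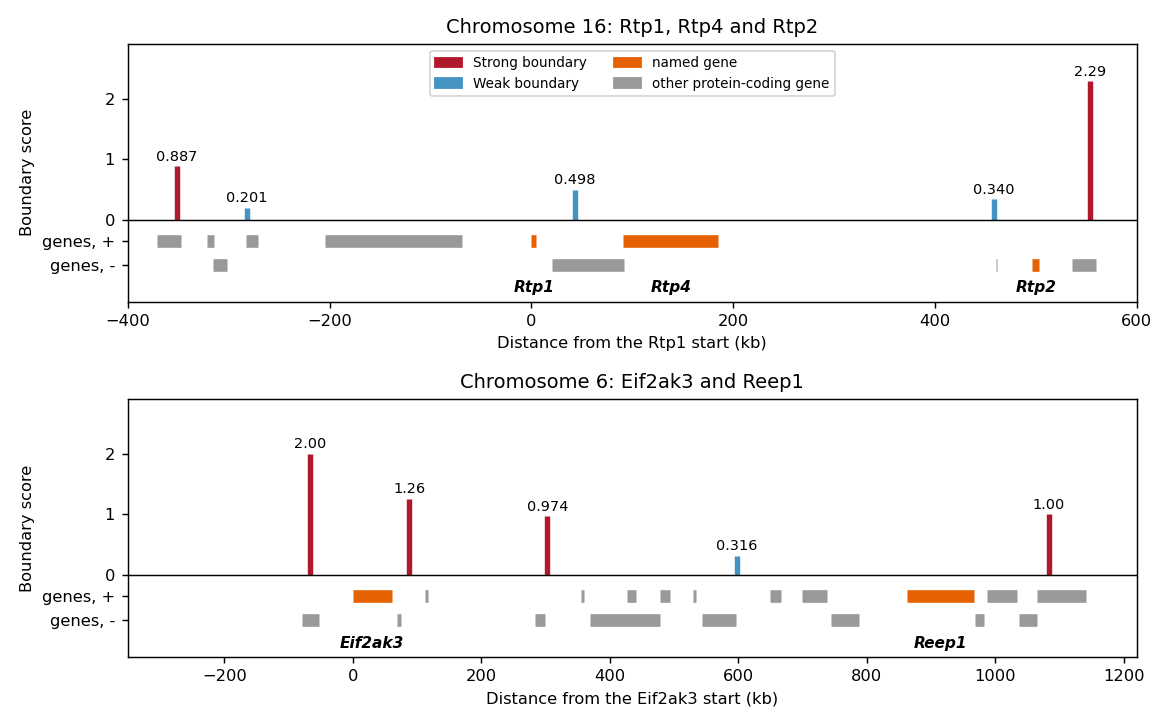
Boundary scores (bars, red Strong and blue Weak) and protein-coding gene bodies by strand (orange for the named genes, grey for others), against distance in kb from the Rtp1 start (top) and from the Eif2ak3 start (bottom). Weak boundaries of 0.498 and 0.340 separate Rtp1, Rtp4 and Rtp2 between outer Strong ones of 0.887 and 2.29, and 3 boundaries of 1.26, 0.974 and 0.316 stand between Eif2ak3 and Reep1.

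Reep1 (ENSMUSG00000052852.8, chr6:71707561-71810710, plus strand) lay 262.6 kb from the left boundary (chr6:71440001-71445000) and 217.4 kb from the right one (chr6:71925001-71930000), near the centre of an interval of 480.0 kb. Its distance was at percentile 92.7. Reep1 is 103.2 kb long, and the nearest point of its body was 114.3 kb from the right boundary. The left one was Weak with a score of 0.316 and held the start of Rmnd5a, a ubiquitin ligase subunit gene. The right one was Strong with a score of 1.00 and overlapped an exon of Polr1a, which encodes the largest subunit of RNA polymerase I. Of the 8 coding starts of the interval, the nearest were those of the histone demethylase gene Kdm3a, 74.6 kb to the left, and of the mitochondrial ribosomal protein gene Mrpl35, 119.4 kb to the right. Eif2ak3 lies on the same chromosome, 863.0 kb away, with 3 boundaries between the starts, 2 of them Strong.

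No olfactory receptor gene started in any of the 7 intervals, and 93.2% of all protein-coding starts in an interval likewise share theirs with none. Among pairs of one of the 7 genes with another of them or with a gene of the pathway lists on the same chromosome within 1 Mb, 8 in all, Ddit3 and Os9 were the only ones in a shared interval. The starts of the 8 pairs lay 91.2 to 863.0 kb apart, and the median interval of all protein-coding starts was 275.0 kb. No share was computed over other gene pairs at like distances, so nothing is read from this count. Atf5 was separated by 1 Weak boundary, of score 0.391, from Gfy, the goofy gene of olfactory neurons, 362.9 kb away. From Ppp1r15a, which encodes the stress-induced eIF2α phosphatase subunit that opposes PERK, it was separated by 3 boundaries over 709.6 kb. Rtp1 and the ER chaperone gene Dnajb11 stood 571.3 kb apart with 2 boundaries between.

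The wider pathways were read from 6 lists with 81 genes in all, 74 of them outside the 7. The lists were written with earlier results of these data known, so their shares are descriptions only. Of the 81, 11 (13.6%) started within 10 kb of a boundary, a share near the 12.5% of all protein-coding starts, and all 11 were outside the 7. The median distance of all 81 was 51.6 kb, against 57.8 kb for all protein-coding starts. The list of the PERK arm and the integrated stress response held 6 of the 11, among its 19 genes (31.6%). Eif2ak4, the amino acid sensor kinase GCN2, Ppp1r15b, the constant partner of the eIF2α phosphatase, the pseudokinase gene Trib3 and the asparagine synthetase gene Asns started inside a boundary. Cebpb lay at 1.09 kb and Atf4, the main effector of the response in most cells, at 9.82 kb. Ppp1r15b, Asns, Cebpb and Atf4 stood at Strong boundaries with scores of 1.39, 1.43, 1.02 and 0.960, and Eif2ak4 and Trib3 at Weak ones of 0.314 and 0.363. Atf5 was the farthest of that list, at 303.3 kb, followed by Eif2ak2 at 222.4 kb and Chac1 at 113.8 kb. ATF4 and ATF5 are both made from mRNAs whose translation rises with eIF2α phosphorylation, and their genes thus stood at distances of percentiles 12.3 and 95.7.

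Each count within 10 kb below stands beside 12.5% of all protein-coding starts. None of the 11 genes of the IRE1 and ATF6 arms, the other branches of the unfolded protein response, lay within 10 kb. Their median was 61.3 kb, and the farthest were Rtcb at 117.2 kb, Ern1 at 87.9 kb and Creb3l1 at 84.5 kb. Of the 18 chaperone and folding enzyme genes only Pdia6 did, at 3.46 kb, while Ero1lb at 170.9 kb, Hspa5 at 122.0 kb and Creld2 at 115.4 kb were the farthest. Of the 15 genes of ER-associated degradation, Vcp at 0.507 kb and Derl1 at 2.45 kb did, and Erlec1 at 270.7 kb, Ufd1 at 163.2 kb and Edem2 at 89.5 kb stood at the far end. None of the 12 genes of the receptor transport and REEP families lay within 10 kb. They had the longest median of the 6 lists, 74.7 kb, and the farthest were Reep3 at 223.1 kb, Reep1 at 217.4 kb and Reep2 at 124.4 kb. Of the 6 genes listed as feedback partners of receptor choice, those of the transcription factors Emx2 and Ebf1 lay at 3.37 and 7.32 kb. Both stood at Strong boundaries, with scores of 2.57 and 1.42. Lhx2 at 90.7 kb, the cyclase gene Adcy3 at 48.1 kb and Ldb1 at 34.8 kb were the farthest of these. The lists differ in size and share no test, so none is set apart by these counts.

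**Figure D4:**
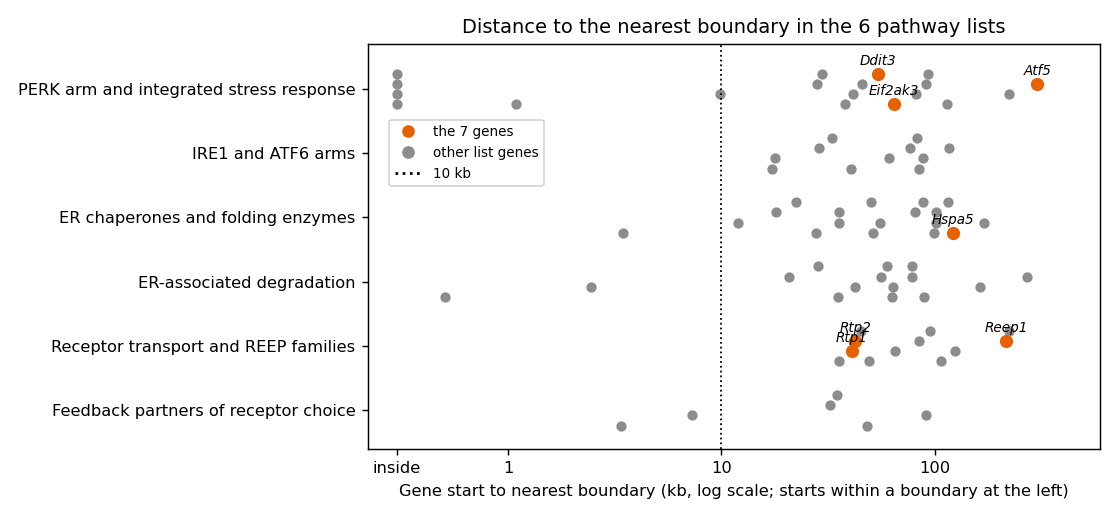
Distance from gene start to nearest boundary (kb, log scale) for the 81 genes of the 6 lists, orange for the 7 genes and grey for the rest; vertical offsets only separate points, and starts inside a boundary are drawn at the left edge. All 7 genes lie to the right of the dotted line at 10 kb, and the 4 starts inside a boundary are all of the PERK list.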

How the data were processed

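Boundaries were deposited as 1 list, called by the authors on a matrix of both replicates, per the series design text, on GRCm38, per the submitters' processing notes. The deposited score and class are the authors' own; how the score is computed, and by which caller and aligner, is not given in the sources used here. All 7435 boundaries are 5.0 kb wide and lie on chromosomes 1 to 19 and X. Scores run from 0.2 to 4.38. A gene start is the 5′ end of the GENCODE M21 gene, and a distance runs to the nearer edge of a boundary. Percentiles are over 21542 protein-coding starts with a boundary on both sides (distance) or the 20836 in an interval; 706 start inside a boundary. Sequence came from the RefSeq copy of GRCm38.

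The 7 genes were chosen by name, as said above, and the 6 lists were written, both with earlier results of these data known. Besides the 7, genes were named as follows: the coding starts next to each of them and next to their boundaries, list genes within 10 kb of a boundary, the 3 farthest of each list, and the 1 most alike gene for each. Genes overlapping a boundary, Rtp4 and the list genes within 1 Mb were named after their values were seen. Distances were checked on 116 placed positions and motif search on 19 placed sites, all recovered. Alternatives tried were other distance limits, Strong boundaries alone, a score of at least 0.3, gene bodies, transcript starts and boundary midpoints. Python 3.11.15, numpy 2.4.6, pandas 2.3.3 and matplotlib 3.10.9 were used. Without values per replicate no test over samples was possible. Contact matrices, insulation and compartment tracks were not used here.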

Additional observations from a re-analysis of the deposited data

How the results depend on the processing

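Of 34 recomputed values, 21 stayed within 1.5-fold of the reported one. The count of the 7 genes within 10 kb of a boundary stayed 0 at 25 kb (24.8% of all protein-coding starts) and for transcript starts or gene bodies. At 50 kb it became 2 (44.3% of all protein-coding starts). Starts inside a boundary and Strong boundaries alone also gave 0, but could give nothing else once the count within 10 kb was 0. Both are among the 21 values. So are the distances of Eif2ak3, Hspa5 and Reep1 with Strong boundaries alone, since their nearest boundary is already Strong. The gene bodies of Atf5, Ddit3, Hspa5, Rtp1 and Rtp2 are short beside their distances, so measuring from them could change little. A boundary midpoint could likewise move the median little. The tally of 21 is therefore no measure of robustness. The list genes within 10 kb, 11 of 81 as reported, became 17 within 25 kb (24.8% of all protein-coding starts) and 39 within 50 kb (44.3%). Inside a boundary they were 4, against 706 of the 21542 protein-coding starts. With Strong boundaries alone they were 8, for which no share of all genes was computed. With Strong boundaries alone the median distance of the 7 genes became 217.4 kb (101.7 kb for all protein-coding starts). Their median interval became 775.0 kb. Leaving out boundaries can only keep or lengthen the interval of any gene, and this median was not computed over all genes. Ddit3 moved to 225.8 kb and Rtp1 to 349.1 kb. Measured from the gene body, Eif2ak3 came to 24.8 kb and Reep1 to 114.3 kb. The flanking boundaries with a CTCF match, 5 as reported, became 1 inside the boundary (6.27% of all), 8 within 25 kb (38.1%) and 13 with at most 1 mismatch (87.9%). These shares are over all boundaries. None was computed over the flanking places of all protein-coding starts, where the reported setting gave 26.9% against 23.1% of all boundaries. No paired analysis was possible because the list pools both replicates. Depth is unknown, positions are given in steps of 5 kb with unknown error, and a boundary missing from the list may lie below the lowest score deposited, 0.2.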

Other observations

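For each of the 7 genes, the protein-coding gene outside their intervals with the most alike surroundings was taken, by the distance over 4 percentile ranks (distance to the upstream and downstream boundary, and the score of each, read along the gene's strand). These ranks describe 1 pooled list and say nothing of shared function. For Eif2ak3 it was Fkbp2, 5.87 percentile points away, with 59.5 kb upstream and 75.5 kb downstream to boundaries of scores 1.88 and 1.15. For Atf5 it was Dhrs3 (5.18 points), with 332.8 and 287.2 kb to scores of 0.352 and 0.611. Ddit3 was nearest to Cyp11b2 (3.21 points), with 228.7 and 61.3 kb to scores of 1.16 and 0.437. Hspa5 was nearest to Tmod2 (4.44 points), Rtp2 to Gdap2 (4.93 points) and Reep1 to Arap2 (5.68 points). For Rtp1 the most alike was an odorant receptor gene, Olfr1179 (7.42 points), with 308.5 kb upstream to a boundary of score 0.201 and 46.5 kb downstream to one of 0.429.

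Without the Weak class, the interval of Ddit3 grew to 945.0 kb with 40 coding starts, that of Atf5 to 715.0 kb with 43, and that of Reep1 to 775.0 kb with 14. Those of Eif2ak3 and Hspa5 kept their 150.0 and 455.0 kb, since both have Strong boundaries on either side.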
